A study of Homo sapiens with 4 samples.

Results

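The 9 genes described here encode basic helix-loop-helix (bHLH) transcription factors of neuronal and oligodendrocyte development: NEUROG1, NEUROG2, NEUROD1, NEUROD2, NEUROD4, NEUROD6, OLIG1, OLIG2 and TCF4. They were chosen by name from 20162 protein-coding gene records. Binding of the homeodomain proteins MEIS1 and MEIS2 was located by ChIP-seq in human neural stem cells (hNSC), a culture supplied by Gibco that was untreated and grown in serum-free medium on a coated surface. The series had 2 samples of MEIS ChIP and 2 of Input. Immunoprecipitation used an anti-MEISA and an anti-MEIS1 antibody together, so that a peak does not tell which of the proteins was bound. The Input samples had no values of their own here and entered only through peak calling. No expression was measured in these samples, so the identity of the cells could not be checked by markers.

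Each gene was given a window of its body and 250 kb on either side. The authors' peaks were placed by their summit, the position of highest signal. Reproducible sites are the 5169 regions that passed the authors' test of reproducibility between replicates (IDR, the irreproducible discovery rate). Strength is given as fold enrichment over input and as −log10 p, in which a larger number means a smaller p of the peak caller. Paired values are given in the order replicate 1, replicate 2. The −log10 p of a site equalled the lower of its replicate values within 0.01 for 99.5% of all sites. Replicate 1 held 36796 peaks and replicate 2 held 47449 peaks, and the number of reads behind them is unknown.

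The proneural factors of the NEUROG family start neuronal differentiation in dividing progenitors, and the related NEUROD factors act later, while neurons mature. OLIG1 and OLIG2 specify oligodendrocyte precursors, and OLIG2 also motor neuron progenitors. All of these proteins bind E-box sequences as dimers with broadly expressed E-proteins, of which TCF4 is one. This TCF4 is the E-protein also called E2-2, not the Wnt effector TCF7L2. Genes of this kind are commonly controlled by distant enhancers, and TALE homeodomain proteins such as MEIS often bind such elements beside other factors.

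Of the 9 genes, 5 had at least 1 reproducible MEIS site in their window, against 47.5% of all protein-coding genes. These were OLIG1 and OLIG2 with 3 sites each, NEUROD1 and TCF4 with 2 each, and NEUROD6 with 1. At least 2 sites were held by 4 of the 9 genes, against 20.9% of all genes, and at least 3 by 2 of the 9, against 8.68%. NEUROG1, NEUROG2, NEUROD2 and NEUROD4 had 0 sites. OLIG1 and OLIG2 start 44.2 kb apart and their windows hold the same 3 sites, so the 11 pairs of gene and site came from 8 distinct sites and the counts of these neighbours are not separate observations.

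The 8 sites lay far from the canonical start of any protein-coding gene, but some were nearer to other annotated starts. With every annotated transcript counted, non-coding ones included, a start lay 0.1 kb from the NEUROD6 site. For the other sites this distance ranged from 7.53 kb, at the upstream OLIG site, to 46.1 kb, and it was 8.73 kb at the strongest OLIG site. A transcription start site (TSS) is taken here from the canonical transcript of each protein-coding gene. The distance from a site to the nearest such TSS ranged from 15.3 to 176 kb with a median of 81.2 kb, beside a median of 100.2 kb over all 5169 sites. None of the 8 lay within 5 kb of one, as 8.49% of all sites did. Only the TCF4 site 63.3 kb downstream of the TSS lay inside the body of the gene in whose window it was counted. For 6 of the 8, the nearest TSS was that of NEUROD1, OLIG1 or TCF4.

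**Figure D1:**
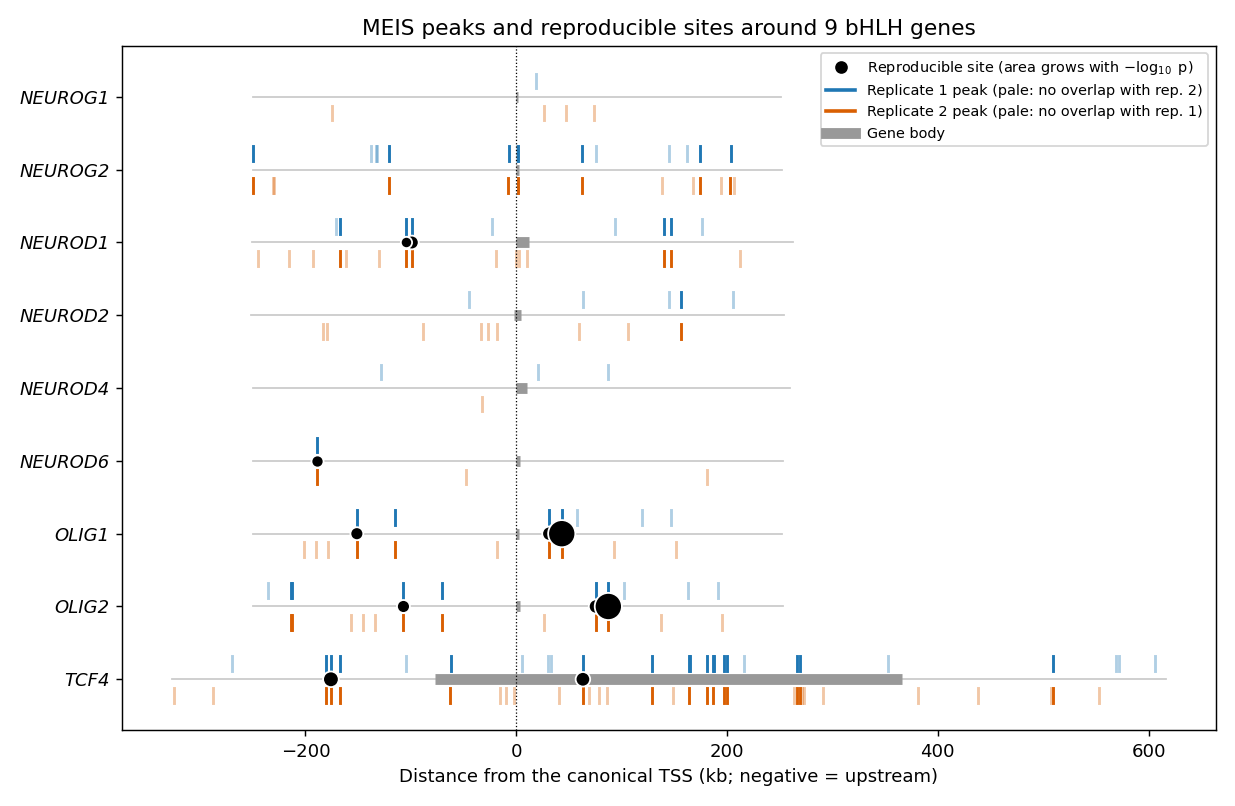
Positions of MEIS peaks around the 9 genes, with the distance from the canonical TSS on the x axis in kb and 1 row for each gene, drawn in the direction of transcription. Blue and orange ticks are peaks of replicates 1 and 2, pale where the other replicate had no overlapping peak, and black circles are the 8 reproducible sites, of which the 3 at OLIG1 and OLIG2 appear in both rows. No circle lies within 5 kb of the canonical start of the gene in its row, and NEUROG1 and NEUROD4 have pale ticks only.

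The sequence at each site is shown because it holds what MEIS and its partners could read there. Each stretch has 200 bases with the summit at its centre, from GRCh37 on the + strand and written 5′ to 3′. Capitals mark TGACAG, the core of the MEIS motif, and its shorter form TGACA, on either strand, so that CTGTCA and TGTCA are the same letters read from the other strand.
OLIG1 43.2 kb downstream, chr21:34485558-34485757: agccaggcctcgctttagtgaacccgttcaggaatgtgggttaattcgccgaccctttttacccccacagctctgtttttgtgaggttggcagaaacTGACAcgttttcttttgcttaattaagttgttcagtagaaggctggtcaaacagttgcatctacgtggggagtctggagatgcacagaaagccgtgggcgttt
OLIG1 31.5 kb downstream, chr21:34473818-34474017: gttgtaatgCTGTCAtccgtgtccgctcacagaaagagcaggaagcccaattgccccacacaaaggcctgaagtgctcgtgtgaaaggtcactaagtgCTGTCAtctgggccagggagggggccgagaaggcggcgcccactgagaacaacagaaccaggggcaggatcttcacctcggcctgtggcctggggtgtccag
OLIG1 151 kb upstream, chr21:34291147-34291346: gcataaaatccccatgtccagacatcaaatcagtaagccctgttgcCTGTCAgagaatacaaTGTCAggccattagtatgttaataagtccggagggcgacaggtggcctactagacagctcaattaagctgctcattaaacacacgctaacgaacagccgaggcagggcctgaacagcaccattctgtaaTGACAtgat
NEUROD1 99 kb upstream, chr2:182644189-182644388: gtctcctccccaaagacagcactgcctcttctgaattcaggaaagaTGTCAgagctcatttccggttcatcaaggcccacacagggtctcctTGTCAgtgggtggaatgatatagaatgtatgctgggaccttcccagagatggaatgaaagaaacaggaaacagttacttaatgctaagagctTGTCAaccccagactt
NEUROD1 104 kb upstream, chr2:182649289-182649488: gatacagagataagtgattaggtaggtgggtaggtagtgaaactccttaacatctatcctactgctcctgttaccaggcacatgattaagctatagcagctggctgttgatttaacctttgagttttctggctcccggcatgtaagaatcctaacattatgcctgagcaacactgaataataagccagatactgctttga
NEUROD6 189 kb upstream, chr7:31568876-31569075: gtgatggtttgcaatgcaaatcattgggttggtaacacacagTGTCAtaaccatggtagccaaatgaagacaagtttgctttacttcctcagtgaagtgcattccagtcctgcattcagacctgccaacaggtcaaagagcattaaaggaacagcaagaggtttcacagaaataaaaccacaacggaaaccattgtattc
TCF4 63.3 kb downstream, chr18:53192031-53192230: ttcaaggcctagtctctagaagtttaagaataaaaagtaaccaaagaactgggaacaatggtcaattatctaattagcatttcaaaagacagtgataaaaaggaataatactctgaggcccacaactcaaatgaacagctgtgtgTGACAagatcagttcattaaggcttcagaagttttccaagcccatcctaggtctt
TCF4 176 kb upstream, chr18:53431130-53431329: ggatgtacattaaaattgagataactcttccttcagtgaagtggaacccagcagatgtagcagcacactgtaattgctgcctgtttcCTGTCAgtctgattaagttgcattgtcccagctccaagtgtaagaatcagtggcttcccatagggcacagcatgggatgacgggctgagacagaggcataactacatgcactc

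The strongest of the 8 sites was at the OLIG genes. OLIG1 (ENSG00000184221, chr21:34442447-34444719, + strand) and OLIG2 (ENSG00000205927, chr21:34398243-34401504, + strand) lie in the same orientation, OLIG2 first. The site chr21:34485089-34486203 lay beyond both genes, 43.2 kb downstream of the OLIG1 TSS and 87.4 kb downstream of the OLIG2 TSS, inside the long non-coding RNA gene ENSG00000226527. Replicate 1 gave it a fold enrichment of 26.7 and a −log10 p of 281, and replicate 2 gave 80.1 and 471. It ranked 201 of 5169 sites, within the strongest 3.89%, and the summits of the replicates were 4 bp apart. The 500 bp on its summit held no TGACAG, and TGACA stood at the summit itself in the stretch above. TAATTA, which many homeodomain proteins bind, was centred 18 bp from this summit. The next strongest of the 8 sites, at TCF4, had a −log10 p of 64.7.

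A weaker site lay between OLIG1 and the strongest one. This site, chr21:34473477-34474456, was 31.5 kb downstream of the OLIG1 TSS and outside annotated genes. The replicates gave a fold enrichment of 9.05 and 14.3 and a −log10 p of 55.2 and 47.2. It had the most copies of the MEIS core among the 8 sites, 4 in 500 bp, and the highest GC content, 64.6%. One TGACAG was centred on the summit, with 0 bp between them, and its bases 34473916 to 34473921 shared the last 2 with the E-box CAGATG at 34473920 to 34473925, both read on the − strand. The letters of a MEIS core and of a bHLH E-box thus overlapped in this sequence.

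The remaining OLIG site, chr21:34290781-34291878, lay upstream of both genes, 107 kb from OLIG2 and 151 kb from OLIG1. The nearest protein-coding TSS was that of C21orf62, 105 kb away, and the summit lay inside the long non-coding RNA gene C21orf62-AS1. Its fold enrichment was 6.16 and 19.3, the widest gap between replicates among the 8 sites with a ratio of 3.13. At the upstream site the −log10 p was 30.4 and 71.8, and one TGACAG was centred 52 bp from the summit. A further pair of overlapping peaks, 70.6 kb upstream of OLIG2, was not on the reproducible list. Its −log10 p values were 4.71 and 14.4. Neither OLIG gene had a peak of either replicate within 5 kb of its TSS.

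NEUROD1 (ENSG00000162992, chr2:182533022-182545554, − strand), which drives neuronal differentiation and is also needed in pancreatic islets, had a pair of neighbouring sites upstream. The nearer, chr2:182643468-182645458, lay 99 kb from the TSS and outside annotated genes. Fold enrichment there was 6.02 and 9.0, and the −log10 p values of 39.9 and 40.8 differed little between replicates. It was the widest of the 8 sites, with 1991 bp. Its one TGACAG was centred 196 bp from the summit, outside the printed stretch, which instead held TGACA in 3 places. The TEAD sequence GGAATG was centred 6 bp from the summit, with another copy 44 bp from it.

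The farther NEUROD1 site, chr2:182649068-182649757, lay 104 kb upstream. In replicate 1 it had a fold enrichment of 3.84 and a −log10 p of 12.9, and in replicate 2 of 10.5 and 34.7. It ranked 5128 of 5169 and was therefore among the weakest of the whole list, whose lowest −log10 p was 12.5. It was the only one of the 8 sites with neither TGACAG nor TGACA in 500 bp. The E-box CAGCTG was centred 2 bp from its summit. Near the NEUROD1 start itself, replicate 2 had weak peaks with summits 0.139 kb upstream and 2.33 kb downstream of the TSS, with a −log10 p of 3.16 and 4.12, and replicate 1 had no peak within 5 kb.

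NEUROD6 (ENSG00000164600, chr7:31377079-31380340, − strand), a factor of cortical pyramidal neurons, had a single site 189 kb upstream, chr7:31568555-31569419. Another gene lay closer to it. The summit was in intron 1 of the canonical transcript of ITPRID1, 15.3 kb from its canonical TSS and 0.1 kb from the start of another ITPRID1 transcript. Its fold enrichment was nearly equal in the replicates, 7.15 and 7.44, while its −log10 p was higher in replicate 1, 48.9 against 21.7. The TEAD sequence GGAATG was centred 2 bp from its summit. Besides this site, the NEUROD6 window held 2 peaks of replicate 2 and none of replicate 1.

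TCF4 (ENSG00000196628, chr18:52889416-53332018, − strand), the E-protein partner and by far the longest gene of the set with 443 kb, had a site inside an intron and another upstream. The site chr18:53191746-53192579 lay in intron 3 of the canonical transcript, 63.3 kb downstream of its TSS and 14.1 kb from the nearest start of any TCF4 transcript. Its replicates were close, with a fold enrichment of 8.32 and 12.4 and a −log10 p of 49.9 and 52.5. It held no TGACAG but had the shorter form TGACA. The E-box CAGCTG was centred 38 bp from the summit, and the homeodomain sequence TAATTA was also present.

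The upstream TCF4 site, chr18:53430697-53431732, lay 176 kb from the canonical TSS inside the long non-coding RNA gene ENSG00000267284. The TCF4 gene body extends upstream of that TSS to 53332018, so the site is nearer to the gene than this distance. The nearest annotated start of any kind was that of LINC01415, 16.3 kb away. This TCF4 site was the strongest after the OLIG one. Fold enrichment was 9.23 and 21.4, and −log10 p 64.7 and 101. TGACAG was centred 10 bp to the left of the summit, the SOX sequence ACAATG 10 bp to its right and the E-box CAGATG 46 bp to the left.

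**Figure D2:**
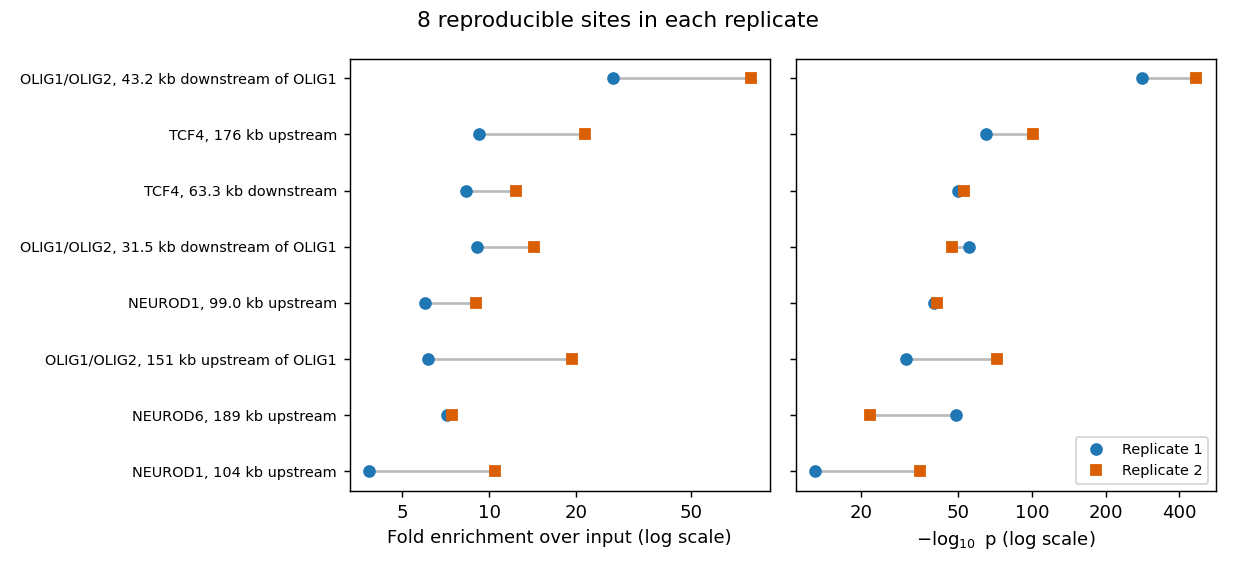
Fold enrichment over input (left) and −log10 p (right) of the 8 reproducible sites, both on log axes, with replicate 1 as blue circles and replicate 2 as orange squares. Rows are ordered by the −log10 p of the site. Fold enrichment was higher in replicate 2 in each row, whereas −log10 p was higher in replicate 1 for the NEUROD6 site and for the site 31.5 kb downstream of OLIG1.

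The 8 sites, of which 3 are from the OLIG locus, ranked from 201 to 5128 of 5169 in strength. Their median −log10 p was 43.5, beside 29.3 over all sites, and 6 of the 8 were in the stronger 50% of the list. An IDR of 0.001 or less was reached by 6 of the 8 (Wilson 95% interval 40.9 to 92.9), beside 60.4% of all sites, which lies inside that interval. Fold enrichment was higher in replicate 2 at 8 of 8 sites, with a median ratio of 1.95, but so it was at 97.4% of all sites, with a median ratio of 1.80. The same direction thus held across the list. Width and base composition were close to those of the list, with a median of 1008 bp beside 1086 bp and a mean GC content of 44.6% beside 43.0%.

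The MEIS core TGACAG was present in 4 of the 8 sites (50%, Wilson 95% interval 21.5 to 78.5), beside 58.3% of all sites in windows of 500 bp. The strongest site was among the 4 without it. The shorter form TGACA, looked for after the sequences had been seen, was in 7 of 8, beside 90.9% of all sites. In 200 bp it was also in 7 of 8, beside 79.6%, so the form without the last G was common at these sites and in the list alike. The composite of PBX and MEIS half-sites was in 0 of 8, an interval that reaches 32.4%, beside 4.93% of all sites.

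E-boxes, which the proteins encoded by these 9 genes bind, had shares below those of the list, by counts too small to tell them apart. CAGATG was in 3 of 8, beside 39.9% of all sites, and CAGCTG in 2 of 8, beside 34.2%. The SOX sequence ACAATG and the TEAD sequence GGAATG were each in 5 of 8 (62.5%, 30.6 to 86.3), beside 39.9% and 38.2%. TAATTA was in 2 of 8, beside 18.2%. The share over all sites lay inside the interval of the 8 sites for each of these motifs. A match to letters does not show that a factor was bound.

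**Figure D3:**
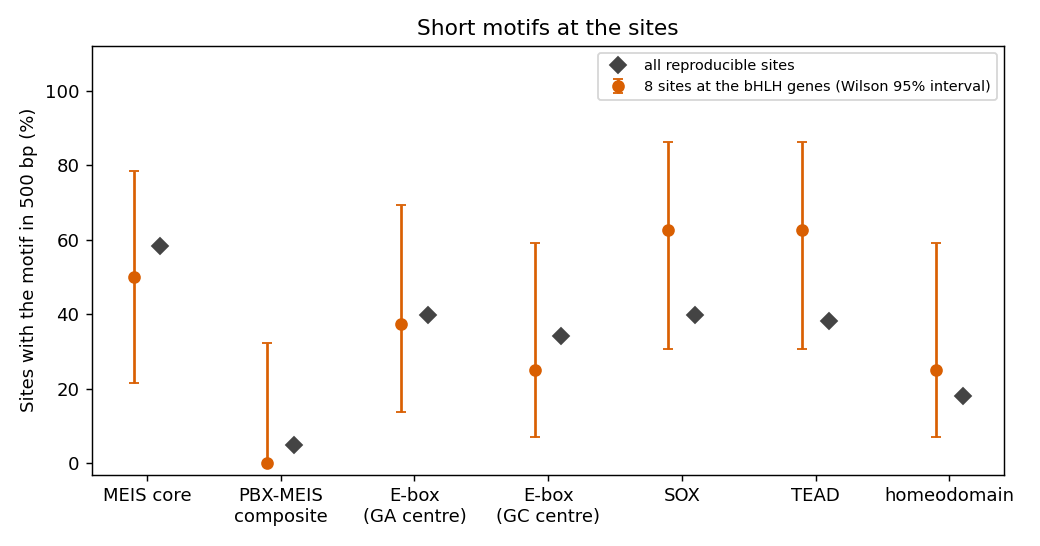
Share of sites with each short motif in 500 bp on the summit, in percent, for the 8 sites at the bHLH genes (orange circles, bars are Wilson 95% intervals) and for all 5169 sites (grey diamonds). The E-box with a GA centre is CAGATG and that with a GC centre is CAGCTG. Each grey diamond lies within the orange bar beside it, and the bars are wide because there are 8 sites.

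Genes with longer bodies have longer windows, so each count was set against 200 protein-coding genes of the most similar body length. As many or more sites than OLIG1 were found at 4.50% of such genes, and than OLIG2 at 3.0%. For NEUROD1 the share was 15.5% and for NEUROD6 37%. For TCF4 it was 50%, with a median of 1.50 sites and up to 13 at genes of its length, so 2 sites were an ordinary number for a gene that long. For the genes without a site, 29.5% of genes as long as NEUROG1 had any, 36.0% for NEUROG2, 40.5% for NEUROD2 and 40% for NEUROD4. By body length, a count of 0 was the more common outcome for each of the 4. By the number of TSS, given next, this held for NEUROD2 only.

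Against genes with the most similar number of protein-coding TSS in the window, in place of length, the shares with as many or more sites were higher for the genes with short bodies. They were 11.4% for OLIG1, 9.55% for OLIG2, 26.1% for NEUROD1 and 58.8% for NEUROD6. For TCF4 the share was 41.3%. Of the genes matched in this way, 55.3% had any site for NEUROG1 and also for NEUROG2, 51.6% for NEUROD4 and 44.2% for NEUROD2. A count of 0 was thus the less common outcome for NEUROG1, NEUROG2 and NEUROD4 by this match.

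**Figure D4:**
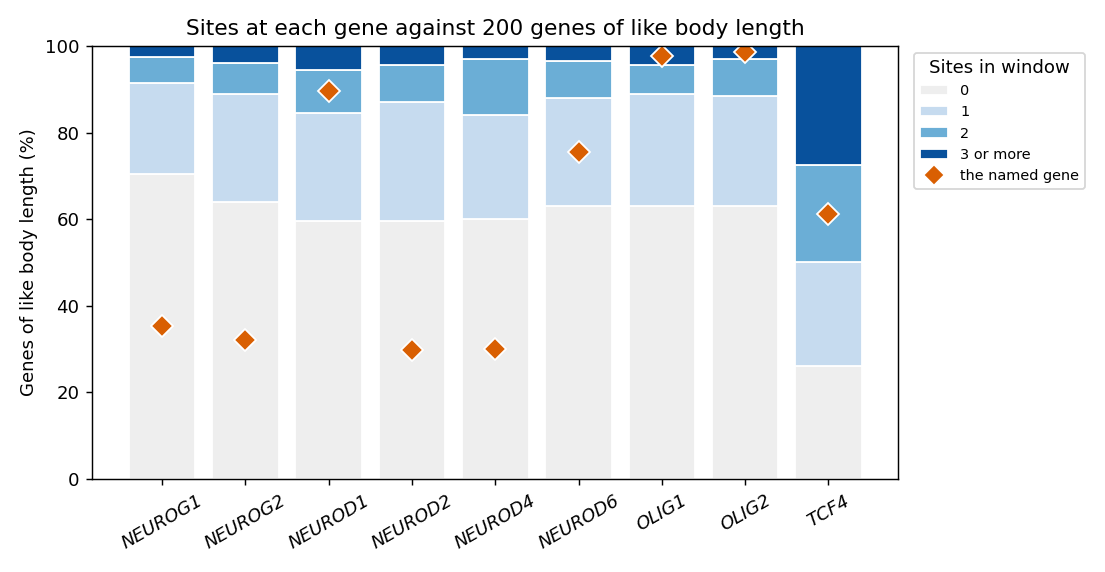
Share of the 200 genes of like body length that had 0, 1, 2, or 3 or more reproducible sites in their window, in percent, as 1 stacked bar for each of the 9 genes. The orange diamond marks the class into which the named gene itself falls. The diamonds of OLIG1 and OLIG2 stand in the top class, which 4.50% and 3.0% of the genes of like length reach, and those of NEUROG1, NEUROG2, NEUROD2 and NEUROD4 in the class with 0 sites.

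The peaks of the single replicates differed among the 4 genes without a reproducible site. In 7 of the 9 windows, at least 1 peak of replicate 1 shared 1 bp or more with a peak of replicate 2, against 86.6% of the windows of all genes. NEUROG2 and NEUROD2 had such peaks, and NEUROG1 and NEUROD4 had none.

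NEUROG2 (ENSG00000178403, chr4:113434672-113437336, − strand), the main proneural gene of the dorsal forebrain, had 14 peaks in replicate 1 and 13 in replicate 2, and 7 of each overlapped a peak of the other. In replicate 1, 9.5% of genes of like length had as many or more peaks, and in replicate 2, 19.5%. Most of the peaks in the window lay nearer to the TSS of ALPK1, ZGRF1 or LARP7 than to that of NEUROG2. The strongest overlapping pair lay 175 kb downstream in intron 2 of ALPK1, with a fold enrichment of 3.60 and 8.37 and a −log10 p of 11.3 and 23.2. Another pair lay 0.036 kb from the TSS of ZGRF1 in replicate 1, with a −log10 p of 7.10 and 7.04. Of the 9 genes, NEUROG2 was the only one with an overlapping pair within 5 kb of its TSS, against 13.7% of all genes. That pair lay in the 3′ untranslated part of exon 2, 2.09 kb from the TSS in replicate 1 and 2.01 kb in replicate 2. It was weak, with a fold enrichment of 2.25 and 3.69 and a −log10 p of 3.91 and 6.06. A replicate 1 peak 0.495 kb downstream of the TSS, with a −log10 p of 5.45, had no counterpart in replicate 2.

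NEUROG1 (ENSG00000181965, chr5:134869972-134871654, − strand), a proneural gene of cranial sensory neurons, had 1 peak in replicate 1 and 4 in replicate 2, with no overlap among them. The highest −log10 p in its window was 2.57 and 6.11. The nearest reproducible site was 1555 kb from its TSS. This was the largest such distance among the 9 genes.

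NEUROD2 (ENSG00000171532, chr17:37759789-37766030, − strand), a factor of cortical neurons, had 5 peaks in replicate 1 and 9 in replicate 2. A single pair overlapped, 157 kb downstream and 0.076 kb from the TSS of MED1 in replicate 1, with a −log10 p of 7.19 and 6.60. It therefore lay at the promoter of another gene. NEUROD4 (ENSG00000123307, chr12:55413758-55423801, + strand), a neurogenic factor of the retina and other regions, had 3 peaks in replicate 1 and 1 in replicate 2, none of them overlapping. As many or more peaks were found at 85.5% of genes of its length in replicate 1 and 99% in replicate 2. The nearest reproducible site was 457 kb from the NEUROD2 TSS and 661 kb from the NEUROD4 TSS.

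The TCF4 window, the longest of the set, held the most peaks of each replicate. There were 26 peaks in replicate 1, of which 17 had their summit in the gene body, and 32 in replicate 2, of which 22 did. As many or more peaks were found at 6.50% of genes of like length in replicate 1 and 5.50% in replicate 2. Both replicates overlapped at 16 of the replicate 1 peaks, and 14 of these were not on the reproducible list. In the pair in intron 8, 269 kb downstream, the −log10 p was 12.2 and 46.7. In a pair in intron 5, 164 kb downstream, it was 11.6 and 35.9, so in both the replicate 2 peak was much the stronger. A peak 1.62 kb before the canonical TSS was called in replicate 2 alone, at a −log10 p of 7.15.

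NEUROD1 had 9 peaks in replicate 1 and 15 in replicate 2, with 5 of each overlapping. OLIG1 had 7 and 10, with 4 overlapping, and OLIG2 had 10 and 12, with 6 overlapping. Of the 200 genes of like length, 72 had at least as many peaks as NEUROD1 in replicate 1 and 27 in replicate 2. For OLIG1 these numbers were 93 and 65, and for OLIG2 46 and 51. They were 166 and 136 for NEUROG1, 136 and 87 for NEUROD2, and 193 and 179 for NEUROD6. In the NEUROD1 window, a pair in intron 11 of CERKL, 139.9 kb downstream, stayed off the list with a −log10 p of 7.99 and 21.6. Over the 9 windows there were 69 distinct peaks in replicate 1, of which 52.2% overlapped replicate 2 (Wilson 95% interval 40.6 to 63.5), beside 49.0% of all replicate 1 peaks. In replicate 2 there were 89, of which 38.2% (28.8 to 48.6) overlapped, beside 38.0%. The share of peaks seen in both replicates was thus close to that in the rest of the genome.

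**Figure D5:**
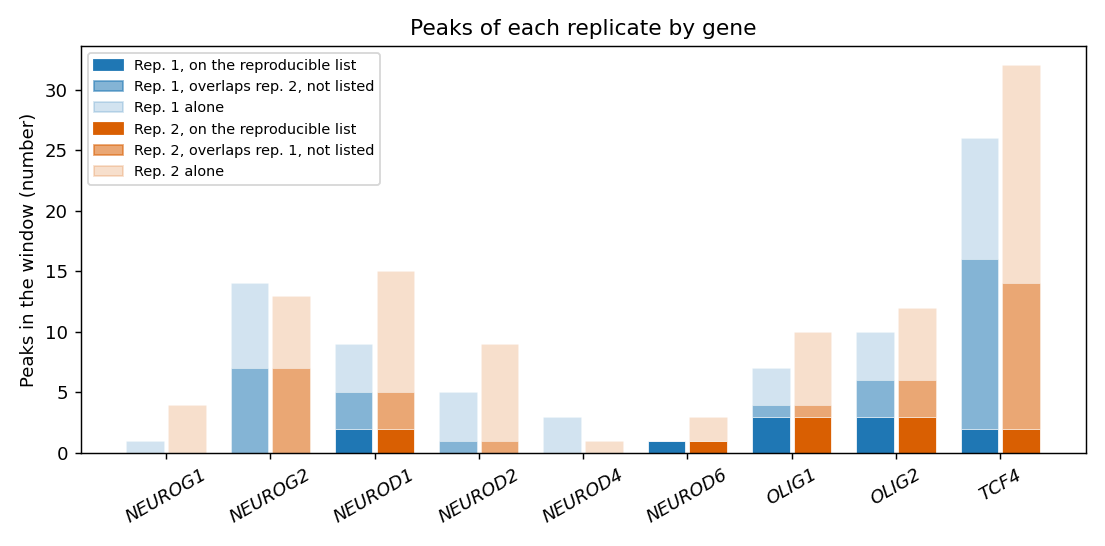
Number of peaks in the window of each of the 9 genes, in replicate 1 (blue) and replicate 2 (orange), split into peaks on the reproducible list (dark), peaks that overlapped the other replicate but were not listed (medium) and peaks of 1 replicate alone (pale). TCF4 has the most, 26 and 32, and the bars of NEUROG2 have a medium part of 7 in each replicate with no dark part.

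Most of these overlapping pairs were weaker than any listed site. Of the 28 replicate 1 peaks that overlapped replicate 2 but were not listed, 26 had a lower −log10 p of the pair below 12.5, the lowest of the list. Such a difference is largely set by the selection of the list, so it is not a separate result about these genes. When as many of the strongest replicate 2 peaks as there were sites were used in place of the list, NEUROG2 gained 1 peak, NEUROD1 had 3 in place of 2, TCF4 had 4 in place of 2, and the set had 12 distinct peaks at 6 genes. With replicate 1 alone, NEUROD1 had 1 in place of 2, and the set had 7 peaks at 5 genes. The peak gained at NEUROG2 was the replicate 2 peak of the pair in intron 2 of ALPK1, at rank 4723. The replicate 1 peak of that pair ranked 7914.

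Beside the 9 genes, 15 other neural bHLH genes and bHLH partners were counted in the same way. These were NEUROG3, ATOH1, ATOH7, PTF1A, NHLH1, NHLH2, BHLHE22, BHLHE23, OLIG3, TCF3, TCF12 and the dimerisation inhibitors ID1, ID2, ID3 and ID4. Of these 15, 7 had at least 1 site, beside 5 of the 9 genes described here and 47.5% of all protein-coding genes. At least 2 sites were held by 3 of the 15, beside 4 of the 9 and 20.9% of all genes. The 4 include OLIG1 and OLIG2, whose windows hold the same sites. The most were at TCF12, another E-protein gene, with 6 sites. TCF12 is 381 kb long, and 7.0% of genes of like length had as many or more. NHLH1, with a body of 5.78 kb, had 3 sites. As many or more were found at 3.0% of genes of its length, the same share as for OLIG2.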

How the data were processed

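Binding was measured by ChIP-seq in 2 MEIS ChIP replicates of hNSC. Per the labels, reads of 36 bp were trimmed with cutadapt 1.16 and mapped to GRCh37 with Bowtie2 2.3.0, filtered at a mapping quality of 30 with SAMtools 1.2, and freed of duplicates with Picard 2.15.0. Peak calling by the authors used MACS2 per replicate against input at a p of 0.01, followed by IDR 2.0.3 for reproducible sites. The deposited peak lists give fold enrichment (a linear ratio), −log10 p and −log10 q. The deposited site list gives a scaled IDR score, −log10 p and −log10 IDR, and its 8 columns of per-replicate values were not used. Reads were not analysed here, so depth is unknown.

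Genes came from GENCODE 44 on GRCh37. For 281 records without exactly 1 canonical transcript, the longest was used. Windows, overlaps, the 7 motifs (both strands) and Wilson intervals were computed with Python 3.11.15, pandas 2.3.3, scipy 1.17.1 and pyfaidx 0.9.0.4, and the counting was tested on simulated data. All results are descriptions without tests. Named are all 9 genes with every site, genes nearest to a site, and 15 other bHLH genes as counts; 1 further gene is not reported here. The members and lists were chosen with earlier results of these data known. Per the study's methods, the replicates were separate batches of hNSC handled side by side, so their spread covers these batches only. Intervals cover counting error only.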

Additional observations from a re-analysis of the deposited data

How the results depend on the processing

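No paired analysis was possible because only ChIP peak lists were at hand, without values for the Input libraries. In place of 5 genes with a site, 8 distinct sites and 11 pairs of gene and site, gene bodies alone gave 1 gene, 1 site and 1 pair, and that site had no TGACAG (0%). Extension by 100 kb gave 5 sites and 7 pairs, and by 500 kb 13 sites and 17 pairs. Keeping only sites whose nearest protein-coding TSS was that of the gene gave 3 genes and 6 pairs. With the form TGACA, chosen after seeing the data, the share of sites with the core was 87.5%. At a −log10 p of at least 5, replicate 1 had 36 peaks in place of 69 and replicate 2 had 47 in place of 89. Each of these settings widened or narrowed the windows, the letters or the lists. The other 27 values of this kind stayed within 1.5 times the count or within the interval of the share. An IDR of 0.001 or less was read from the −log10 IDR.

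Of 81 site counts of single genes, 16 moved, 12 to fewer sites and 4 to more. Of 27 comparisons with like genes, 8 moved, all with the number of TSS in place of body length. The unknown depth limits the comparison of peak numbers and fold enrichment between replicates, and 8 sites limit every share to a wide interval.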
